A study of Homo sapiens with 23 samples.

Results

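The RNA levels of 10 genes of the NF-kappa-B response were followed across 5 genotypes of HCT116 cells, a human colorectal carcinoma line. The genes are the chemokines *CXCL1*, *CXCL2*, *CXCL3*, *CXCL8* and *CXCL16*, the inhibitors and survival factors *NFKBIA*, *TNFAIP3* and *BIRC3*, and the subunit genes *NFKB1* and *NFKB2*. They were chosen by name, with earlier results of these data known, and matched to the Ensembl identifiers of the deposited tables. They make up 10 of 57875 genes listed and 10 of 22842 genes tested. All 10 passed the filter on low counts. The study asked how loss of argonaute (AGO) proteins, which carry miRNAs to their target RNAs, changes steady state RNA. RNAseq was done on 3 biological replicates each of wild-type cells and of lines labelled AGO1/2/3-/-, AGO1/2-/-, AGO2-/- and AGO1-/-, 15 samples in all, grown in the same medium. The knockout lines were made from HCT116 cells by CRISPR editing through a commercial service, and each genotype is represented by a single line, so that genotype and line cannot be told apart. No stimulus of the pathway is named in the labels.

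NF-kappa-B is a family of dimeric transcription factors that is held inactive in the cytoplasm by inhibitor proteins until signals from cytokine or microbial receptors lead to destruction of the inhibitor. The freed dimers enter the nucleus and switch on chemokines that draw neutrophils to inflamed epithelium, as well as genes whose products shut the pathway down again. *NFKBIA* encodes the inhibitor IkappaB-alpha and *TNFAIP3* encodes A20, a ubiquitin-editing enzyme, and both are textbook feedback genes. *BIRC3* encodes cIAP2, a ubiquitin ligase at the tumour necrosis factor receptor that also restrains cell death. *NFKB1* and *NFKB2* encode the precursors p105 and p100, which act as inhibitors and are processed to the subunits p50 and p52.

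Samples held 27709971 to 45271146 counts on genes, with the 3 *AGO2* knockout samples at 40419152 or above. The 10 genes together held 4924 to 8486 counts of a sample. *AGO1* RNA, checked as a targeted gene, was 138, 108 and 146 CPM (counts scaled to library size by the TMM method of edgeR) in wild-type replicates 1 to 3 and 28.7 to 39.5 CPM in the 9 samples of the 3 lines labelled as lacking *AGO1*. *AGO3* RNA was 100.03 to 130 CPM in wild-type cells and 46.1 to 57.4 CPM in *AGO1/2/3* knockout cells. *AGO2* RNA was 379 to 459 CPM in wild-type, 262 to 314 CPM in *AGO2* knockout, 321 to 365 CPM in *AGO1/2* knockout and 518 to 557 CPM in *AGO1/2/3* knockout cells. In the *AGO1* line, which is not labelled as lacking *AGO2*, it was 334 to 364 CPM, within the range of the *AGO1/2* line. *AGO2* RNA was not lower than wild-type in the *AGO1/2/3* line. Since an edited gene can still be transcribed, the RNA level does not check the *AGO2* label of the *AGO1/2* and *AGO1/2/3* lines. The paper checked the knockout lines by DNA sequencing and reported from western blots that the targeted proteins were not expressed. Of 7 markers of colorectal epithelium, *KRT8* was at 642 ± 46.4 CPM in wild-type cells (SD, n = 3) and *VIL1* had at most 10 counts in any sample. The 7 markers summed to 1720 to 1927 CPM in wild-type samples, to 1335 to 1446 CPM in the *AGO1* line, to 1631 to 1835 CPM in the *AGO2* line, to 2157 to 2644 CPM in the *AGO1/2* line and to 1635 to 2124 CPM in the *AGO1/2/3* line. Leukocytes are a rich source of the same chemokines, and of 6 leukocyte markers *CD14*, *CD3E* and *FCGR3A* were not tested because of low counts, with at most 4, 1 and 0 counts in any sample, while *PTPRC* was at 0.966 CPM in wild-type and 0.979 CPM in *AGO1/2/3* knockout cells. The 6 summed to between 2.47 and 5.79 CPM in wild-type samples, to between 3.25 and 5.84 in the 2 single knockout lines and to between 9.34 and 15.0 in the *AGO1/2* and *AGO1/2/3* lines, where *LYZ*, which epithelial cells can also make, was called higher. *CD68*, a macrophage marker, was 1.28, 3.92 and 4.70 CPM in wild-type and 7.59, 9.76 and 7.22 CPM in *AGO1/2* knockout cells. It was called higher there (log2 fold change 1.31, adjusted p = 0.0222). Of the 3 leukocyte markers tested, 2 were thus called higher in that line, where 8.37% of all genes tested were. The third, *PTPRC*, was at 1.07 to 1.28 CPM there and was not called. *NFKBIA* and *BIRC3* were also called higher in that line, and a link to the markers was not tested. The *CD68* call was lost without wild-type replicate 1 (0.92) or *AGO1/2* knockout replicate 2 (1.15). *CD68* was called lower in the *AGO1/2/3* line (-1.09, adjusted p = 0.0402), a call lost without wild-type replicate 2 (-0.97, adjusted p = 0.0962) or 3 or any of the *AGO1/2/3* knockout replicates. The epithelial adhesion genes *EPCAM* and *CDH1* fell in that line, with log2 fold changes of -1.74 and -3.51, while *KRT8* was called higher (0.41), though not without wild-type replicate 2 (0.33, adjusted p = 0.0772) or 1 or *AGO1/2/3* knockout replicate 2 or 3. Of 5 fibroblast markers 1, *COL3A1*, was called higher in the *AGO1/2/3* line, where 20.3% of all genes tested were. Of 3 endothelial markers 2 were tested, and none was called in that line. Over all 15 samples the fibroblast markers summed to between 11.7 and 31 CPM and the endothelial markers to between 1.47 and 3.21 CPM. The part of these markers in the results below was not tested. Nothing beyond the word biological says that replicates came from separate cultures, so that p-values measure the spread between these samples.

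Wild-type replicate 2 touches several results. It was the highest of the 3 wild-type samples for *CXCL1*, *CXCL2*, *CXCL3*, *CXCL8*, *CXCL16* and *NFKB2*, 6 of the 10 genes. Replicate 3 was the highest for 4 of the 10 genes and replicate 1 for 0. Of all 22465 genes tested that have a symbol of their own, 39.1% were highest in replicate 2, 36.6% in replicate 3 and 24.3% in replicate 1. Fits without replicate 2 are given beside the calls that were lost without it.

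Promoter windows from RefSeq (GRCh38.p14, reaching from upstream of each transcription start to just past it) were searched on both strands for the NF-kappa-B consensus of 10 bases and for its 9-base core GGAATTTCC. The core was chosen after the windows had been read and lies within many matches to the consensus, so the searches overlap. Of the 10 genes, 9 had a window, and *CXCL16* had no entry. These 9 genes had 12 windows. The core stood in 6 of the 12, from 6 genes, and in 0.461% of all 35116 windows. The consensus stood in 9 of the 12, from 8 genes, and in 11.3% of all windows. *CXCL8* was the gene with the core and no match to the longer consensus. The sequences below are shown because the same 9 letters, in capitals, recur upstream of the 4 clustered chemokines, *NFKBIA* and *NFKB1*, and each reads 5′ to 3′.
CXCL1, chr4:73869315-73869323, plus strand, bases -78 to -70 from the start: tggaactccgGGAATTTCCctggcccggg
CXCL2, chr4:74099264-74099272, minus strand, bases -77 to -69: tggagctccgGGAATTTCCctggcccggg
CXCL3, chr4:74038759-74038767, minus strand, bases -78 to -70: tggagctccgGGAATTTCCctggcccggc
CXCL8, chr4:73740478-73740486, plus strand, bases -91 to -83: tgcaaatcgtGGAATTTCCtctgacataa
NFKB1, chr4:102501311-102501319, plus strand, bases -48 to -40: gacgtcagtgGGAATTTCCagccaggaag
NFKBIA, chr14:35404822-35404830, on the strand opposite to the gene, bases -81 to -73: tcaggctcggGGAATTTCCaagccagtca
For the other 3 genes the consensus match nearest to a start is given, with the consensus in capitals. For *NFKB2* this is the start in the window chr10:102395455-102395754, which lies inside the gene. Its window chr10:102394328-102394627 also held matches, the nearest at bases -78 to -69.
TNFAIP3, chr6:137867204-137867213, opposite strand, bases -55 to -46: ttgtaggcccGGGGATTTCCacgggacttt
BIRC3, chr11:102317349-102317358, opposite strand, bases -135 to -126: ttaggacttaGGGGAACTCCagcggtaata
NFKB2, chr10:102395684-102395693, same strand, bases -21 to -12: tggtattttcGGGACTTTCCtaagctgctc
A match describes letters in a window and shows neither a bound site nor a cause of any change below.

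The 4 neutrophil-attracting chemokines of the cluster on chromosome 4 were weakly expressed in these HCT116 cells, for which the labels name no stimulus. Their mean level was lowest in the *AGO2* line for *CXCL1*, *CXCL2* and *CXCL8* and in the *AGO1/2/3* line for *CXCL3*. *CXCL8* (interleukin 8; ENSG00000169429, chr4:73740519-73743716) was 3.23, 5.55 and 1.72 CPM in wild-type replicates 1 to 3. It was 0.996, 0.767 and 1.80 CPM in *AGO1*, 1.07, 0.718 and 0.963 CPM in *AGO2*, 1.22, 1.59 and 1.29 CPM in *AGO1/2* and 3.16, 1.61 and 1.32 CPM in *AGO1/2/3* knockout cells. No sample of the *AGO2* and *AGO1/2* lines reached the lowest wild-type sample, whereas the *AGO1* and *AGO1/2/3* lines overlapped with it. *CXCL8* fell in the *AGO1* line by 1.55 on the log2 scale (standard error, SE, 0.41, adjusted p = 0.0302, from the quasi-likelihood test of edgeR, adjusted after Benjamini and Hochberg over all genes tested), in the *AGO2* line by 1.92 (SE 0.41, adjusted p = 0.00734) and in the *AGO1/2* line by 1.35 (SE 0.41, adjusted p = 0.0335). The *AGO1/2/3* line had a log2 fold change of -0.76 (SE 0.39, adjusted p = 0.139) and the change was not called, although it was without *AGO1/2/3* knockout replicate 1 (-1.27, adjusted p = 0.0294) or wild-type replicate 3 (-1.11, adjusted p = 0.0209). Without wild-type replicate 2 the log2 fold change was -1.05 in the *AGO1* line (adjusted p = 0.12), -1.45 in the *AGO2* line (adjusted p = 0.0328) and -0.87 in the *AGO1/2* line (adjusted p = 0.157), so that the call was kept in the *AGO2* line and lost in the others. The *AGO1* call was also lost without wild-type replicate 1 or *AGO1* knockout replicate 1 or 2, with values from -1.6 to -1.31. The *AGO1/2* call was also lost without wild-type replicate 1 or any of the 3 *AGO1/2* knockout replicates, with values from -1.49 to -1.29. In bulk RNA, fewer cells that make a chemokine and less RNA in each cell cannot be told apart.

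*CXCL1* (GRO-alpha; ENSG00000163739, chr4:73869393-73871308), a ligand of the same receptor, was measured at 8 to 50 counts a sample. Its level was 0.721, 1.21 and 0.573 CPM in wild-type, 0.436, 0.402 and 0.400 CPM in *AGO1*, 0.448, 0.185 and 0.355 CPM in *AGO2*, 0.641, 0.414 and 0.921 CPM in *AGO1/2* and 1.28, 0.666 and 0.644 CPM in *AGO1/2/3* knockout cells. Both single knockout lines lay below all wild-type samples, and the *AGO1/2* and *AGO1/2/3* lines overlapped with them. *CXCL1* fell in *AGO2* knockout cells (log2 fold change -1.33, SE 0.40, adjusted p = 0.0317). Without wild-type replicate 2 this value was -0.99 (adjusted p = 0.154), and the call was also lost without *AGO2* knockout replicate 2 or 3. The log2 fold change in the *AGO1* line was -1.0 (SE 0.41, adjusted p = 0.151), and in *AGO1/2/3* knockout cells it was 0.08 (SE 0.36, adjusted p = 0.883), with a sign that turned under total-count scaling (-0.063).

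*CXCL2* (ENSG00000081041, chr4:74097040-74099196) and *CXCL3* (ENSG00000163734, chr4:74036589-74038807), paralogs of *CXCL1*, were not called in any line against wild-type cells. *CXCL2* was 1.19, 2.33 and 0.513 CPM in wild-type replicates and 0.373 to 1.35 CPM in the 12 knockout samples, and *CXCL3* was 0.439, 1.08 and 0.0904 CPM in wild-type replicates and 0.162 to 0.621 CPM in the knockout samples. The wild-type samples thus spanned 4.54-fold for *CXCL2* and 12.0-fold for *CXCL3*, more than any knockout line did. The lowest wild-type value of *CXCL3* is 3 counts. Log2 fold changes of *CXCL2* ran from -1.07 (SE 0.45, adjusted p = 0.103) in the *AGO2* line to -0.39 (SE 0.44, adjusted p = 0.514) in the *AGO1/2/3* line, and those of *CXCL3* from -1.11 (SE 0.61, adjusted p = 0.167) in the *AGO1/2/3* line to -0.17 (SE 0.56, adjusted p = 0.898) in the *AGO1* line. Without wild-type replicate 2 the sign turned for *CXCL2* in the *AGO1/2* and *AGO1/2/3* lines (0.0066 and 0.23) and for *CXCL3* in the *AGO1*, *AGO2* and *AGO1/2* lines (0.84, 0.12 and 0.42). Without wild-type replicate 3, *CXCL2* and *CXCL3* were called lower in the *AGO2* line (-1.49 and -1.40, adjusted p = 0.0158 and 0.0356) and *CXCL3* also in the *AGO1/2/3* line (-1.64, adjusted p = 0.0121).

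**Figure D1:**
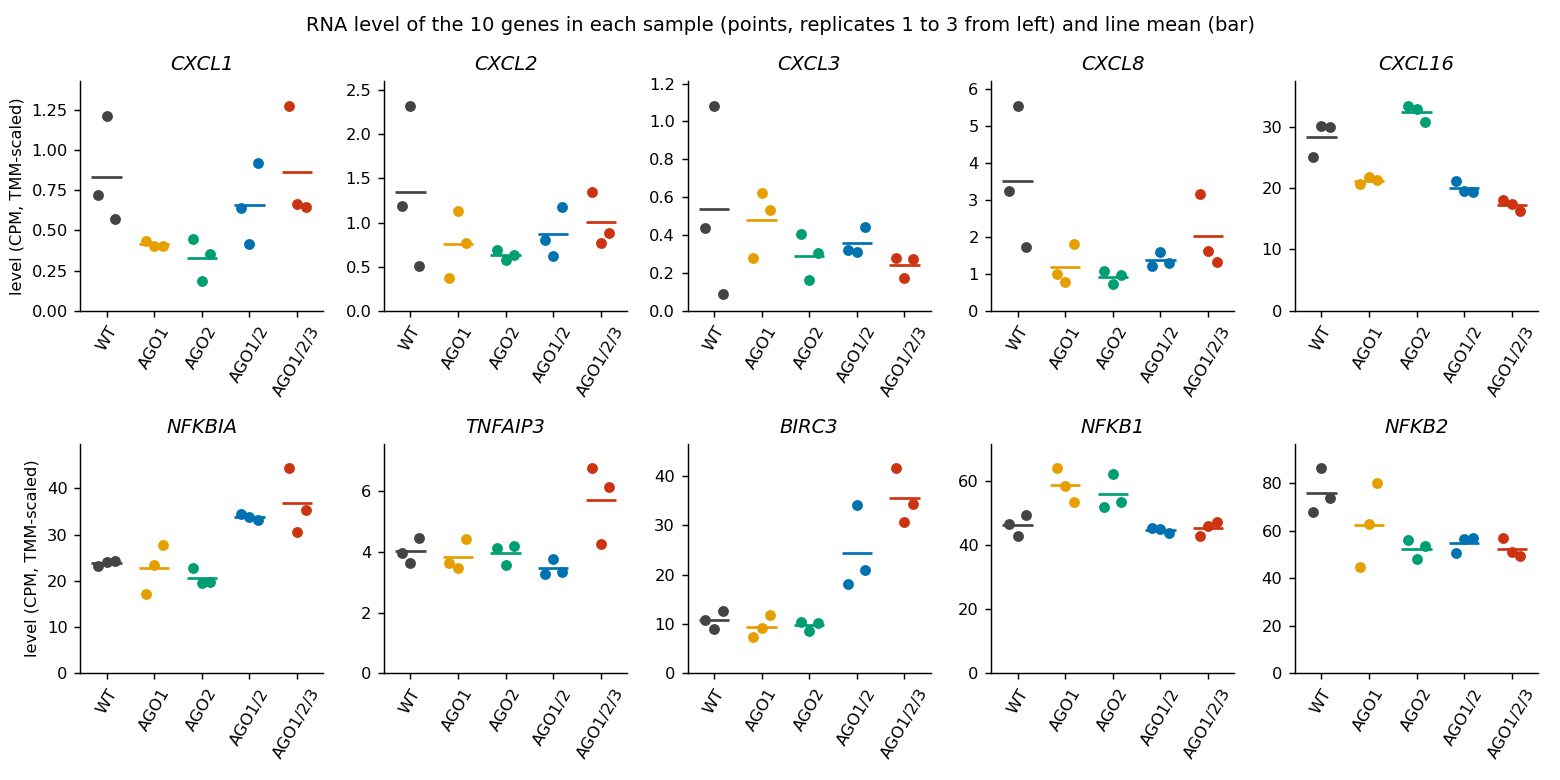
Level of each of the 10 genes in CPM on a linear axis from 0, one panel a gene, with the samples of wild-type cells and of the 4 knockout lines as points and the line mean as a bar. Wild-type replicate 2 is the highest point of all 5 lines for CXCL2, CXCL3 and CXCL8, BIRC3 is higher in all 6 samples of the AGO1/2 and AGO1/2/3 lines (18.1 to 41.5 CPM) than in the other 9 (7.31 to 12.6 CPM), and CXCL16 is below every wild-type and AGO2 knockout sample in the other 3 lines.

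Reads of close paralogs can be split between them by the quantification, whose named mode differs for the *AGO2* knockout samples. Of all stretches of 31 bases in a gene's main transcript, 14.4% of those of *CXCL1*, 21.7% of *CXCL2* and 9.57% of *CXCL3* also occurred in another of the 4 clustered chemokines, and 0 of those of *CXCL8*. With *CXCL1*, *CXCL2* and *CXCL3* replaced by their sum, the log2 fold change was -0.72 for the *AGO1* line (SE 0.42, adjusted p = 0.328), -1.11 for the *AGO2* line (SE 0.41, adjusted p = 0.0699), -0.53 for the *AGO1/2* line (SE 0.41, adjusted p = 0.436) and -0.35 for the *AGO1/2/3* line (SE 0.40, adjusted p = 0.532), and none was called. The 4 chemokines together summed to 5.58, 10.2 and 2.89 CPM in wild-type replicates 1 to 3 and to between 1.64 and 6.07 CPM in the knockout samples. As a description over the 15 samples, Pearson correlations of the log2 levels over the 6 pairs of these chemokines ran from 0.324 (*CXCL1* and *CXCL3*) to 0.776 (*CXCL1* and *CXCL8*). After each line's mean was taken off they ran from 0.569 (*CXCL2* and *CXCL8*) to 0.902 (*CXCL2* and *CXCL3*). These points share their libraries, and *CXCL1*, *CXCL2* and *CXCL3* also share sequence.

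*CXCL16* (ENSG00000161921, chr17:4733533-4739928, minus strand), a transmembrane chemokine that is released by proteolytic shedding and binds the receptor *CXCR6*, behaved with much less spread. It was 25.1, 30.1 and 30.0 CPM in wild-type, 20.6, 21.8 and 21.2 CPM in *AGO1*, 33.4, 32.8 and 30.7 CPM in *AGO2*, 21.2, 19.6 and 19.4 CPM in *AGO1/2* and 18.0, 17.3 and 16.3 CPM in *AGO1/2/3* knockout cells. All 9 samples of the lines edited in *AGO1* lay below the 6 samples of the wild-type and *AGO2* knockout lines. *CXCL16* fell by 0.42 (SE 0.09, adjusted p = 0.0114), 0.50 (SE 0.09, adjusted p = 0.00172) and 0.72 (SE 0.09, adjusted p = 2e-05) on the log2 scale in *AGO1*, *AGO1/2* and *AGO1/2/3* lines, and its log2 fold change in *AGO2* knockout cells was 0.19 (SE 0.09, adjusted p = 0.158). In the order of mean levels (*AGO2* knockout, wild-type, *AGO1*, *AGO1/2* and *AGO1/2/3* knockout), only wild-type and *AGO1* knockout cells differed among neighbours. The call in the *AGO1* line did not hold under 4 of 24 alternatives, including fits without *AGO1* knockout replicate 1 (-0.40, adjusted p = 0.0506) and with only the 6 samples compared (-0.42, adjusted p = 0.124), while the calls in the *AGO1/2* and *AGO1/2/3* lines were kept under 23 of 24 alternatives each and lost only where a 2-fold change was asked for. *ADAM10*, the main constitutive sheddase of *CXCL16*, rose in *AGO1/2/3* knockout cells (log2 fold change 0.55, SE 0.11, adjusted p = 0.000787). In *AGO1/2* knockout cells it was called higher (0.33, adjusted p = 0.0463), but the call was lost in 12 of 15 fits with a sample left out, wild-type replicate 2 among them (0.26, adjusted p = 0.16). *ADAM17*, which is active after stimulation, was called lower in the *AGO1/2/3* line (-0.49, adjusted p = 0.0408), and the call was lost without wild-type replicate 2 (-0.24, adjusted p = 0.209) or any of the *AGO1/2/3* knockout replicates. The receptors *CXCR6*, *CXCR1* and *CXCR2* were not tested, with at most 10, 3 and 11 counts in any sample. *CXCR4*, the receptor of another chemokine and named after its values were seen, rose in the *AGO1/2/3* line from 0.470 ± 0.367 to 1.92 ± 0.323 CPM (SD, n = 3, adjusted p = 0.00216).

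*NFKBIA* and *BIRC3* rose in the *AGO1/2* and *AGO1/2/3* lines, and *TNFAIP3* was called higher in the *AGO1/2/3* line. *NFKBIA* (ENSG00000100906, chr14:35401079-35404749, minus strand) was 23.2, 24.0 and 24.4 CPM in wild-type, 17.2, 23.5 and 27.8 CPM in *AGO1*, 22.8, 19.5 and 19.8 CPM in *AGO2*, 34.5, 33.8 and 33.1 CPM in *AGO1/2* and 44.3, 30.7 and 35.3 CPM in *AGO1/2/3* knockout cells. The 6 samples of the *AGO1/2* and *AGO1/2/3* lines lay above all 9 others. *NFKBIA* rose 1.42-fold in *AGO1/2* (log2 fold change 0.50, SE 0.15, adjusted p = 0.0368) and 1.54-fold in *AGO1/2/3* knockout cells (0.62, SE 0.15, adjusted p = 0.00447). The *AGO1/2* call was lost in 13 of 24 alternatives, whose values ran from 0.42 to 0.52 over all 24. Lost calls came with any wild-type or *AGO1/2* knockout replicate left out, wild-type replicate 2 among them (0.49, adjusted p = 0.0762), and without *AGO2* knockout replicate 2 or 3 or *AGO1/2/3* knockout replicate 3. The *AGO1/2/3* call was lost only where a 2-fold change was asked for.

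*TNFAIP3* (ENSG00000118503, chr6:137867214-137883314), which encodes the enzyme that removes activating ubiquitin chains, was 3.98, 3.63 and 4.46 CPM in wild-type cells, 3.47 to 4.44 CPM in *AGO1*, 3.56 to 4.21 CPM in *AGO2* and 3.27 to 3.76 CPM in *AGO1/2* knockout cells. In *AGO1/2/3* knockout cells it was 6.76, 4.27 and 6.13 CPM. Replicates 1 and 3 of that line were the highest of all samples, and replicate 2 lay within the wild-type range. In the *AGO1/2* line, which had the lowest mean of the 5 lines, the log2 fold change was -0.22 (adjusted p = 0.442). *TNFAIP3* rose 1.43-fold in *AGO1/2/3* knockout cells (log2 fold change 0.51, SE 0.17, adjusted p = 0.0227), a call lost in 8 of 24 alternatives, including total-count scaling (0.37, adjusted p = 0.0854) and the fits without wild-type replicate 1 or 2 or without *AGO1/2/3* knockout replicate 1 or 3. Against the *AGO1/2* line the difference was 0.73 (SE 0.17, adjusted p = 0.00575), and it was the only one of the 10 genes called between these lines.

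*BIRC3* (ENSG00000023445, chr11:102317484-102339403) changed most among the 10 genes in the *AGO1/2/3* line. It was 10.8, 8.96 and 12.6 CPM in wild-type, 7.31, 9.10 and 11.8 CPM in *AGO1*, 10.4, 8.66 and 10.1 CPM in *AGO2*, 18.1, 34.1 and 21.0 CPM in *AGO1/2* and 41.5, 30.7 and 34.3 CPM in *AGO1/2/3* knockout cells. *BIRC3* rose 2.26-fold in *AGO1/2* (log2 fold change 1.17, SE 0.22, adjusted p = 0.00205) and 3.28-fold in *AGO1/2/3* knockout cells (1.71, SE 0.23, adjusted p = 2.2e-05), and both calls were kept under all 24 alternatives, with values from 0.84 to 1.33 and from 1.57 to 1.81. The single knockout lines differed from wild-type cells by -0.20 (*AGO1*, SE 0.23, adjusted p = 0.657) and -0.15 (*AGO2*, SE 0.22, adjusted p = 0.665). The *AGO1/2* and *AGO1/2/3* lines were not called different (0.54, SE 0.22, adjusted p = 0.0905), and *AGO1/2* knockout replicate 2 lay within the range of the *AGO1/2/3* samples.

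Genes beside *BIRC3* were also called higher in the *AGO1/2/3* line. Of 7 other genes averaging 1 CPM or more whose start lies within 1 Mb of that of *BIRC3*, the *AGO1/2/3* line had 3 called higher and 2 lower, where 20.3% of all genes tested were called higher and 19.8% lower. The 3 were *BIRC2*, which encodes the paralog cIAP1, *YAP1*, a transcriptional coactivator of the Hippo pathway, and *TMEM123*, and the neighbours were examined after values had been seen. *BIRC2* (chr11:102347211-102378670) was 66.4, 83.8 and 73.7 CPM in wild-type and 182, 184 and 220 CPM in *AGO1/2/3* knockout cells, and *YAP1* (chr11:102110447-102233424) was 184, 173 and 202 CPM in wild-type and 420, 436 and 451 CPM in *AGO1/2/3* knockout cells. No *AGO1/2/3* sample of either gene overlapped with wild-type cells. The log2 fold changes were 1.39 for *BIRC2* (SE 0.11, adjusted p = 1.78e-07), 1.23 for *YAP1* (SE 0.09, adjusted p = 1.09e-07) and 0.65 for *TMEM123* (SE 0.14, adjusted p = 0.0021). In *AGO1/2* knockout cells, where *BIRC3* was called, the same 3 genes had log2 fold changes of 0.17, 0.24 and 0.05 and none was called. Between the *AGO1/2/3* and *AGO1/2* lines *BIRC2* differed by 1.22 (SE 0.11, adjusted p = 2.41e-06), *YAP1* by 0.99 (SE 0.09, adjusted p = 3.33e-06) and *TMEM123* by 0.60 (SE 0.14, adjusted p = 0.00777), the last not called without *AGO1/2/3* knockout replicate 3 (0.48, adjusted p = 0.0566). *TMEM123* was also called higher in the *AGO2* line (0.59, adjusted p = 0.0144), though not without wild-type replicate 2 (0.38, adjusted p = 0.0538) or *AGO2* knockout replicate 2 or 3. Farther out, *DCUN1D5* fell by 0.90 (SE 0.15, adjusted p = 0.000236) and the overlapping gene ENSG00000260966 by 0.68 (SE 0.14, adjusted p = 0.000954) on the log2 scale in the *AGO1/2/3* line. Whether the number of gene copies at this locus differs between the lines was not tested. Around *NFKBIA* the *AGO1/2/3* line had 8 of 20 such neighbours called higher and 1 lower, and around *CXCL16* it had 5 of 40 higher and 14 lower. Around *TNFAIP3* 1 of 8 was higher and 1 lower. These counts stand against the same 20.3% and 19.8% of all genes tested.

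**Figure D2:**
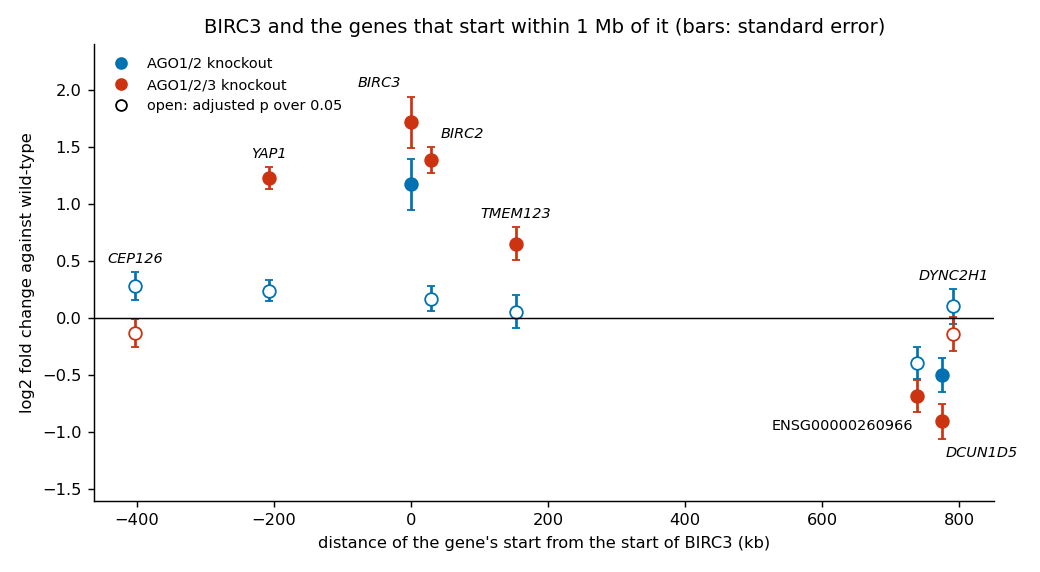
Log2 fold change against wild-type cells (vertical axis, bars are standard errors) of BIRC3 and the genes that start within 1 Mb of it, by distance from its start in kb, for AGO1/2 (blue) and AGO1/2/3 (red) knockout cells, with open points for adjusted p over 0.05. In the AGO1/2/3 line YAP1, BIRC3, BIRC2 and TMEM123 lie between 0.65 and 1.71, whereas in the AGO1/2 line BIRC3 stands at 1.17 and the other 3 lie at 0.24 or below.

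The subunit genes followed other patterns. *NFKB1* (ENSG00000109320, chr4:102501330-102617302) was 46.7, 42.7 and 49.4 CPM in wild-type, 63.9, 58.3 and 53.5 CPM in *AGO1*, 51.8, 62.3 and 53.6 CPM in *AGO2*, 45.4, 45.0 and 43.9 CPM in *AGO1/2* and 42.9, 46.0 and 47.2 CPM in *AGO1/2/3* knockout cells. Both single knockout lines lay above all samples of the other 3 lines. *NFKB1* rose in *AGO1* knockout cells (log2 fold change 0.34, SE 0.10, adjusted p = 0.0428), a call kept in 6 of 24 alternatives (0.25 to 0.42 over all 24) and, with a sample left out, only without *AGO1* knockout replicate 3, *AGO2* knockout replicate 2 or wild-type replicate 3. Its value in *AGO2* knockout cells was 0.27 (SE 0.10, adjusted p = 0.0629), called without *AGO1* knockout replicate 3 (0.29, adjusted p = 0.0423). *NFKB2* (ENSG00000077150, chr10:102394110-102402524) was 68.0, 86.3 and 74.0 CPM in wild-type, 44.9, 63.0 and 80.0 CPM in *AGO1*, 56.1, 48.1 and 53.5 CPM in *AGO2*, 50.7, 56.7 and 56.8 CPM in *AGO1/2* and 57.0, 51.0 and 49.4 CPM in *AGO1/2/3* knockout cells. The *AGO2*, *AGO1/2* and *AGO1/2/3* lines lay below all wild-type samples, and the *AGO1* samples spread from below to within the wild-type range. *NFKB2* fell by 0.53 on the log2 scale in *AGO2* (SE 0.16, adjusted p = 0.0322) and by 0.54 in *AGO1/2/3* knockout cells (SE 0.16, adjusted p = 0.0145), and its log2 fold change in the *AGO1/2* line was -0.48 (SE 0.16, adjusted p = 0.0551), which was called in 9 of 24 alternatives, 3 of them without *AGO1* knockout replicate 1 or 3 or wild-type replicate 1. Without wild-type replicate 2 the *AGO2* call was lost (-0.46, adjusted p = 0.102), as it was without *AGO2* knockout replicate 2 (-0.49) or 3 (-0.57), and the *AGO1/2/3* call was kept (-0.46, adjusted p = 0.0401). Of the 3 other subunit genes, none was called in any line. In *AGO1/2/3* knockout cells *RELA*, the main activating partner of p50, had a log2 fold change of 0.21 (SE 0.10, adjusted p = 0.129), *RELB*, the partner of p52, 0.07 (SE 0.22, adjusted p = 0.843) and *REL* -0.23 (SE 0.10, adjusted p = 0.0766).

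On the scale of CPM per kb of the main transcript, where levels of different genes can be compared, the subunit and feedback genes *NFKB2*, *NFKBIA* and *NFKB1* stood at 25.2 ± 3.10, 15.3 ± 0.395 and 11.4 ± 0.839 in wild-type cells and *CXCL16* at 12.2 ± 1.23 (SD, n = 3). *CXCL8* was at 2.13 ± 1.17, *BIRC3* at 1.57 ± 0.267 and *TNFAIP3* at 0.863 ± 0.0892, and *CXCL1*, *CXCL2* and *CXCL3* were at 0.711 ± 0.285, 1.20 ± 0.822 and 0.5 ± 0.469 CPM per kb. The mean of *BIRC3* was above that of *CXCL8* in every knockout line. *BIRC3* and *CXCL8* were at 1.37 ± 0.329 and 0.724 ± 0.331 CPM per kb in *AGO1* and at 1.42 ± 0.138 and 0.559 ± 0.111 in *AGO2* knockout cells. They were at 3.55 ± 1.24 and 0.831 ± 0.119 in *AGO1/2* and at 5.16 ± 0.802 and 1.24 ± 0.603 in *AGO1/2/3* knockout cells.

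Counted over the 10 genes, 1 was called higher and 2 lower when the *AGO1* line was set against wild-type cells, where 3.17% of all genes tested were called higher and 5.50% lower. For the *AGO2* line 0 were called higher and 3 lower, against 8.55% and 10.8% of all genes. For the *AGO1/2* line 2 were higher and 2 lower, against 8.37% and 8.35%, and for the *AGO1/2/3* line 3 were higher and 2 lower, against 20.3% and 19.8%. The count of 0 higher is from edgeR, and DESeq2's Wald test called 1 gene higher, *NFKB1*, the 1 gene above 0 with an unadjusted p under 0.05 in the edgeR fit. The median log2 fold change of the 10 genes was -0.24, -0.37, -0.41 and -0.21 in the 4 lines in this order, where the median over all genes tested was -0.01, -0.02, 0.01 and -0.01. These medians take in genes that were not called. The low-count *CXCL2* and *CXCL3* lay below 0 in all 4 lines without a call, and several of their values turned sign without wild-type replicate 2.

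**Figure D3:**
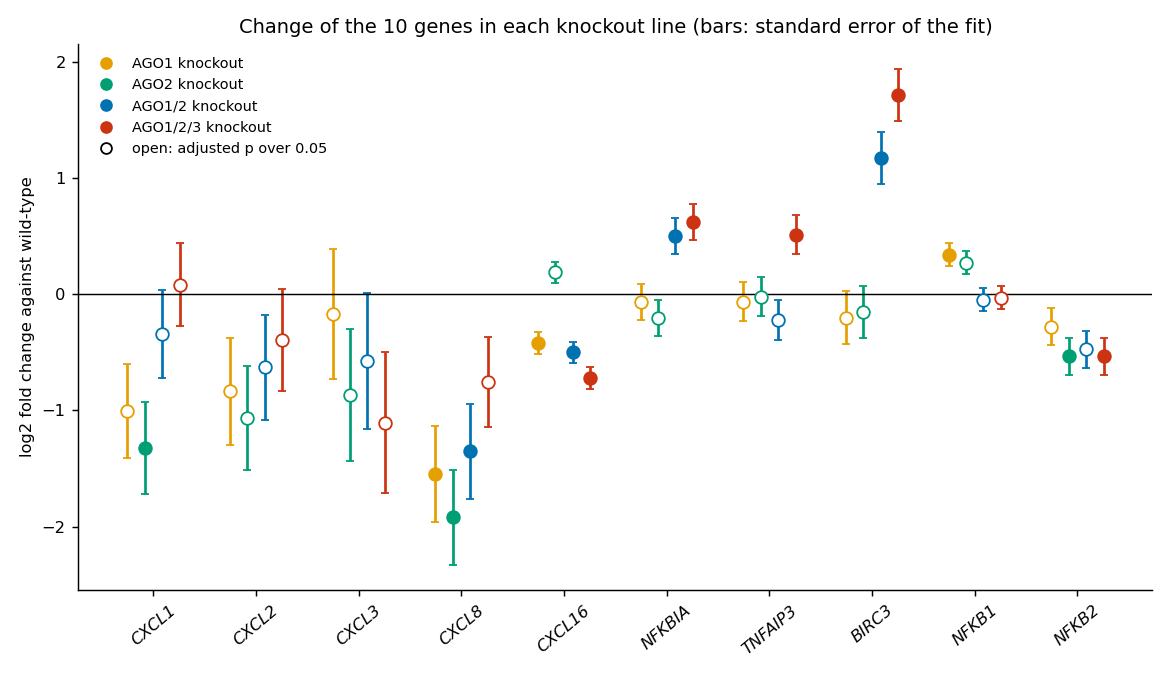
Log2 fold change against wild-type cells (vertical axis, bars are standard errors of the fit) of the 10 genes in the 4 knockout lines, with filled points for adjusted p at or under 0.05. CXCL8 lies between -1.92 and -0.76 in all 4 lines, BIRC3 and NFKBIA are above 0 only in the AGO1/2 and AGO1/2/3 lines, and NFKB1 is at 0.27 or above only in the single knockout lines.

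The knockout lines were also compared with each other. Between *AGO2* and *AGO1* knockout cells 1 of the 10 genes was called, *CXCL16* (0.61 higher in the *AGO2* line, SE 0.09, adjusted p = 0.000488), where 18.4% of all genes tested were called. Between *AGO1/2* and *AGO1* knockout cells 3 were called (19.5% of all genes): *NFKBIA* (0.57, SE 0.16, adjusted p = 0.0171) and *BIRC3* (1.38, SE 0.23, adjusted p = 0.000458) were higher and *NFKB1* (-0.39, SE 0.10, adjusted p = 0.0109) was lower in the *AGO1/2* line. Without *AGO1* knockout replicate 1 the *NFKBIA* and *NFKB1* calls were lost (0.40 and -0.32), and that of *NFKBIA* also without *AGO1* knockout replicate 2 or *AGO1/2* knockout replicate 1 or 2. Between *AGO1/2/3* and *AGO1* knockout cells 6 were called (40.6%), among them *CXCL1*, which was 1.09 higher on the log2 scale in the *AGO1/2/3* line (SE 0.40, adjusted p = 0.0419), a call lost in 10 of 23 alternatives, among them the fits without any of the *AGO1* knockout replicates, *AGO2* knockout replicate 3, *AGO1/2* or *AGO1/2/3* knockout replicate 1 or wild-type replicate 1. The others were *NFKBIA*, *TNFAIP3* and *BIRC3*, which were higher, and *CXCL16* and *NFKB1*, which were lower in the *AGO1/2/3* line. Of these, the *TNFAIP3* call (0.58) was lost without *AGO1* knockout replicate 2 or *AGO1/2/3* knockout replicate 1 or 3 (0.42 to 0.48). Between *AGO1/2* and *AGO2* knockout cells 4 were called (23.9%), namely *CXCL16* and *NFKB1*, which were lower, and *NFKBIA* and *BIRC3*, which were higher in the *AGO1/2* line. The *NFKB1* call (-0.32, adjusted p = 0.0281) was lost in 8 of 23 alternatives, among them the fits without any of the *AGO1/2* knockout replicates, *AGO2* knockout replicate 2 (-0.23, adjusted p = 0.174) or 3 or *AGO1/2/3* knockout replicate 2. Between *AGO1/2/3* and *AGO2* knockout cells 7 were called (40.3%), and *CXCL1* (1.41, SE 0.39, adjusted p = 0.00941) and *CXCL8* (1.17, SE 0.42, adjusted p = 0.0376) were among those higher in the *AGO1/2/3* line. Without *AGO1/2/3* knockout replicate 1 both chemokine calls were lost (0.98 for *CXCL1*, adjusted p = 0.0892, and 0.67 for *CXCL8*, adjusted p = 0.268), and that of *CXCL8* also without any of the *AGO2* knockout replicates, and without *AGO1/2* knockout replicate 3. The others were *NFKBIA*, *TNFAIP3* and *BIRC3*, which were higher, and *CXCL16* and *NFKB1*, which were lower. *NFKB1* (-0.30) was not called without *AGO2* knockout replicate 2 or *AGO1/2/3* knockout replicate 1 or 2, and *TNFAIP3* (0.53) not without *AGO2* knockout replicate 2 or *AGO1/2/3* knockout replicate 1 or 3. Between *AGO1/2/3* and *AGO1/2* knockout cells 1 was called (22.0%), *TNFAIP3*. These comparisons share lines with each other and with those against wild-type cells.

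In the order of mean levels, neighbouring lines rarely differed. The lines stood in the order *AGO1/2/3* knockout, wild-type, *AGO1/2*, *AGO1* and *AGO2* knockout for *CXCL1*, and wild-type, *AGO1/2/3*, *AGO1/2*, *AGO1* and *AGO2* knockout for *CXCL2* and *CXCL8*, and no neighbours in these orders were called different. For *CXCL3* the order was wild-type, *AGO1*, *AGO1/2*, *AGO2* and *AGO1/2/3* knockout, again with no neighbours called different. For *NFKBIA* and *BIRC3* the *AGO1/2/3* and *AGO1/2* lines came first and the step from the *AGO1/2* line to wild-type cells was the one called. For *TNFAIP3* it was the step from the *AGO1/2/3* line to wild-type cells. For *NFKB1* and *NFKB2* no neighbouring lines were called different.

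Lines that differ in *AGO2* were compared with and without *AGO1*, a test added after the values had been seen. Loss of *AGO2* alone is the step from wild-type to *AGO2* knockout cells, and loss of *AGO2* in cells without *AGO1* is the step from *AGO1* to *AGO1/2* knockout cells, so the steps share no samples. The *AGO2* knockout samples name another mode of quantification than those of the other lines. Mode and genotype thus cannot be told apart in the first step. For 5 of the 10 genes the steps differed, where 19.7% of all genes tested did. *CXCL8* changed by -1.92 with *AGO1* and by 0.19 without it, a difference of 2.12 (SE 0.61, adjusted p = 0.0237), and *CXCL1* by -1.33 and 0.66, a difference of 1.99 (SE 0.58, adjusted p = 0.026). *BIRC3* changed by -0.15 and 1.38, a difference of 1.53 (SE 0.32, adjusted p = 0.00412), and *NFKBIA* by -0.20 and 0.57, a difference of 0.77 (SE 0.22, adjusted p = 0.0227). *NFKB1* went the other way, with 0.27 and -0.39 and a difference of -0.66 (SE 0.14, adjusted p = 0.00437). Without wild-type replicate 2 the differences were 1.63 for *CXCL8* (adjusted p = 0.0504) and 1.63 for *CXCL1* (adjusted p = 0.0634), which were no longer called, and 1.65 for *BIRC3* (adjusted p = 0.00271). The calls of *CXCL1*, *CXCL8* and *NFKBIA* were also lost without *AGO1* knockout replicate 2 (1.93, 1.85 and 0.76) or *AGO2* knockout replicate 2 (1.70, 1.97 and 0.73). Calls were also lost without *AGO1* knockout replicate 1 (*CXCL1* and *CXCL8*), *AGO1/2* knockout replicate 3 (*CXCL1*) or 2 (*CXCL8*) and *AGO2* knockout replicate 3 (*NFKBIA*).

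**Figure D4:**
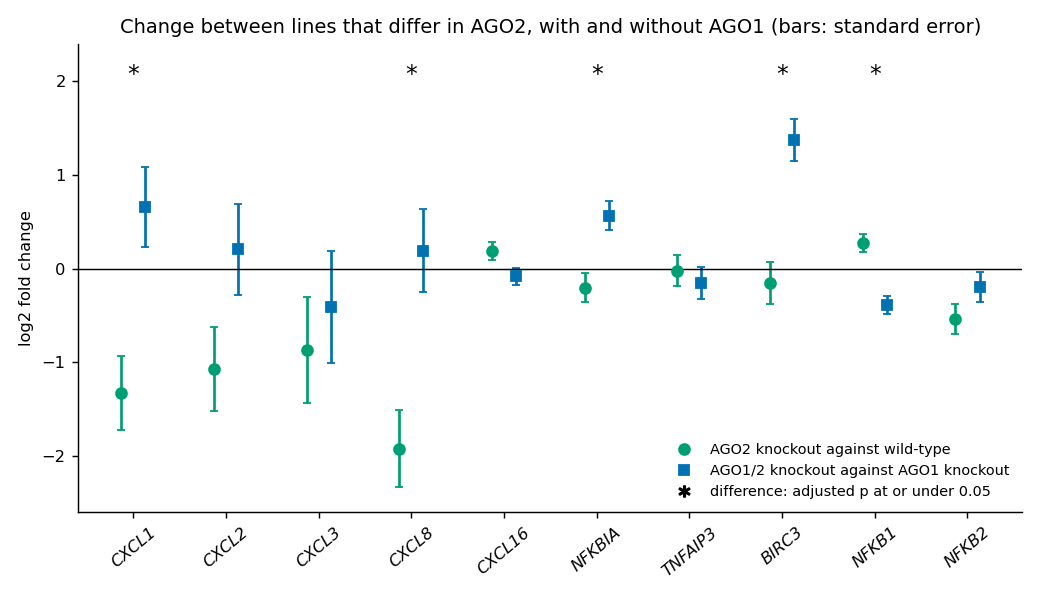
Log2 fold change (vertical axis, bars are standard errors) of the 10 genes for AGO2 knockout against wild-type cells (circles) and AGO1/2 against AGO1 knockout cells (squares), with a star where the difference of the steps has an adjusted p at or under 0.05. The starred genes are CXCL1, CXCL8, NFKBIA, BIRC3 and NFKB1, and the steps differ most for CXCL8, at -1.92 and 0.19.

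Other genes of the pathway were taken from 7 lists that hold 103 genes, of which 102 were matched and 74 tested. The lists were drawn up by known roles but with earlier results of these data known, so their shares are not independent of the data. Of these 74, 1 was called higher and 11 lower in the *AGO1* line, 3 and 17 in the *AGO2* line, 9 and 10 in the *AGO1/2* line and 25 and 14 in the *AGO1/2/3* line. In percent of the 74 these are 1.35 and 14.9 (*AGO1*), 4.05 and 23.0 (*AGO2*), 12.2 and 13.5 (*AGO1/2*) and 33.8 and 18.9 (*AGO1/2/3*), where all genes tested gave 3.17 and 5.50, 8.55 and 10.8, 8.37 and 8.35, and 20.3 and 19.8. The share lower in the *AGO1/2/3* line is thus close to that of all genes. The counts lower without wild-type replicate 2 were 6 in the *AGO1* line and 10 in the *AGO2* line. The *AGO1* count also fell to 4 and 5 without *AGO1* knockout replicates 1 and 2, and the *AGO2* count to 9 and 10 without *AGO2* knockout replicates 2 and 3. The gene higher in the *AGO1* line was *ICAM1*, and those higher in the *AGO2* line were *CXCL14*, *TLR3* and *OTULIN*. Of these, *TLR3* (1.24, adjusted p = 0.0188) was not called without wild-type replicate 2 (0.87, adjusted p = 0.0708) or *AGO2* knockout replicate 2 or 3, and *OTULIN* (0.42) not without *AGO2* knockout replicate 2. The *AGO2* line had 7 higher without wild-type replicate 3 and 5 without *AGO2* knockout replicate 1, and the *AGO1/2* line 4 without wild-type replicate 1 or *AGO1/2* knockout replicate 2 and 6 without *AGO2* knockout replicate 3 or any of the *AGO1/2/3* knockout replicates. Under total-count scaling the split in the *AGO1/2/3* line was 20 higher and 18 lower. Their median log2 fold change was -0.13, -0.12, 0.02 and 0.19 in the 4 lines. Among 12 ligands and receptors tested, 4 were higher and 1 lower in the *AGO1/2/3* line. The interleukin 1 receptor gene *IL1R1* rose (log2 fold change 1.08, SE 0.11, adjusted p = 1.35e-06), as did *TNFSF12*, which encodes the cytokine TWEAK (0.96, SE 0.13, adjusted p = 2.09e-05), and *TLR3*, a receptor for double-stranded RNA (1.23, SE 0.33, adjusted p = 0.00701). *IL1A*, the gene of interleukin 1 alpha, was at 0 to 0.223 CPM in wild-type and at 0.631 to 1.1 CPM in *AGO1/2/3* knockout cells and was called higher (adjusted p = 0.000373). *IL1RAP*, the partner chain of that receptor, fell by 0.86 on the log2 scale (SE 0.20, adjusted p = 0.00261). *TNF*, *IL1B*, *IL6* and *CCL20* were not tested, with at most 1, 7, 1 and 6 counts in any sample.

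Among 22 adaptors and kinases, 9 were higher (40.9%, against 20.3% of all genes tested) and 2 lower (9.09%, against 19.8%) in the *AGO1/2/3* line, with a median log2 fold change of 0.24. Beside *BIRC2*, described above, *TRAF6*, a ubiquitin ligase below the interleukin 1 and Toll-like receptors, rose by 0.89 on the log2 scale (SE 0.10, adjusted p = 6.42e-06). *RBCK1*, a part of the linear ubiquitin ligase, fell (log2 fold change -2.40, SE 0.60, adjusted p = 0.00494), and its wild-type values of 69.9, 289 and 32.2 CPM were again highest in replicate 2, with 23.8 to 25.9 CPM in *AGO1/2/3* knockout cells. The fit without wild-type replicate 2 gave -1.08 (adjusted p = 0.0457). *SHARPIN*, another part of that ligase, named after its values were seen, fell by 0.69 (SE 0.12, adjusted p = 0.00026). Of 11 other genes listed as inhibitors, a label of the list and not a measure of how each gene acts, 3 were higher (27.3%) and 2 lower (18.2%). These are near the shares over all genes given above. *OTULIN* (0.65, SE 0.09, adjusted p = 5.12e-05) and *CYLD* (0.44, SE 0.11, adjusted p = 0.00479), both deubiquitinases that restrain the pathway, rose. *ZFAND5* was called higher (0.26, SE 0.09, adjusted p = 0.0294), a call lost in 12 of 15 fits with a sample left out, with values from 0.17 to 0.31 over the 15. *NFKBID* fell by 0.98 on the log2 scale (SE 0.22, adjusted p = 0.00219). *BCL3* was called lower (-0.81, SE 0.27, adjusted p = 0.0249), though not without wild-type replicate 2 (-0.76, adjusted p = 0.0539) or 3 or *AGO1/2/3* knockout replicate 2 or 3.

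Of 22 other known targets tested, the *AGO1/2/3* line had 7 higher (31.8%, against 20.3% of all genes tested) and 8 lower (36.4%, against 19.8%), with a median log2 fold change of -0.27, where that of all genes was -0.01. In *AGO1* knockout cells 1 was higher and 8 were lower (36.4%, against 5.50%), and in *AGO2* knockout cells 0 and 10 (45.5%, against 10.8%). Leaving out wild-type replicate 2 left 4 and 7 lower in these lines, and the *AGO1* count was 3 and 4 without *AGO1* knockout replicates 1 and 2. *ICAM1*, an adhesion receptor for leukocytes, was 6.02, 8.41 and 9.80 CPM in wild-type, 11.7 to 16.2 CPM in *AGO1*, 2.13 to 3.0 CPM in *AGO2*, 0.626 to 0.993 CPM in *AGO1/2* and 0.385 to 0.536 CPM in *AGO1/2/3* knockout cells, and no lines overlapped. It was called higher in the *AGO1* line (log2 fold change 0.77, adjusted p = 0.018), though not without wild-type replicate 1 (0.61, adjusted p = 0.0718) or *AGO1* knockout replicate 2 or 3, and fell in the *AGO2* (-1.64, adjusted p = 0.000163), *AGO1/2* (-3.31, adjusted p = 2.49e-07) and *AGO1/2/3* lines (-4.06, SE 0.25, adjusted p = 1.11e-08). *PTGS2*, which encodes cyclooxygenase 2, fell by 1.91 on the log2 scale in the *AGO1/2/3* line (SE 0.26, adjusted p = 2.61e-05). *LCN2*, an antibacterial protein gene, was 1.44, 17.8 and 0.814 CPM in wild-type cells and 0.0255, 0 and 0.0678 CPM in *AGO1/2/3* knockout cells and was called lower (adjusted p = 0.000345), also without wild-type replicate 2 (adjusted p = 1.11e-05). *ICAM1*, *PTGS2* and *LCN2* were named for the size of their change, and other targets lay higher in the *AGO1/2/3* line. Among these, named after their values were seen, *CSF1* was 2.65 to 3.20 CPM in wild-type and 6.18 to 7.08 CPM in *AGO1/2/3* knockout cells. *CFLAR* was 62.2 to 83.1 and 127 to 137 CPM. Of 10 other CXC chemokines only *CXCL14* was tested, and it was called higher in *AGO2* knockout cells (log2 fold change 2.06, adjusted p = 0.000538).

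**Figure D5:**
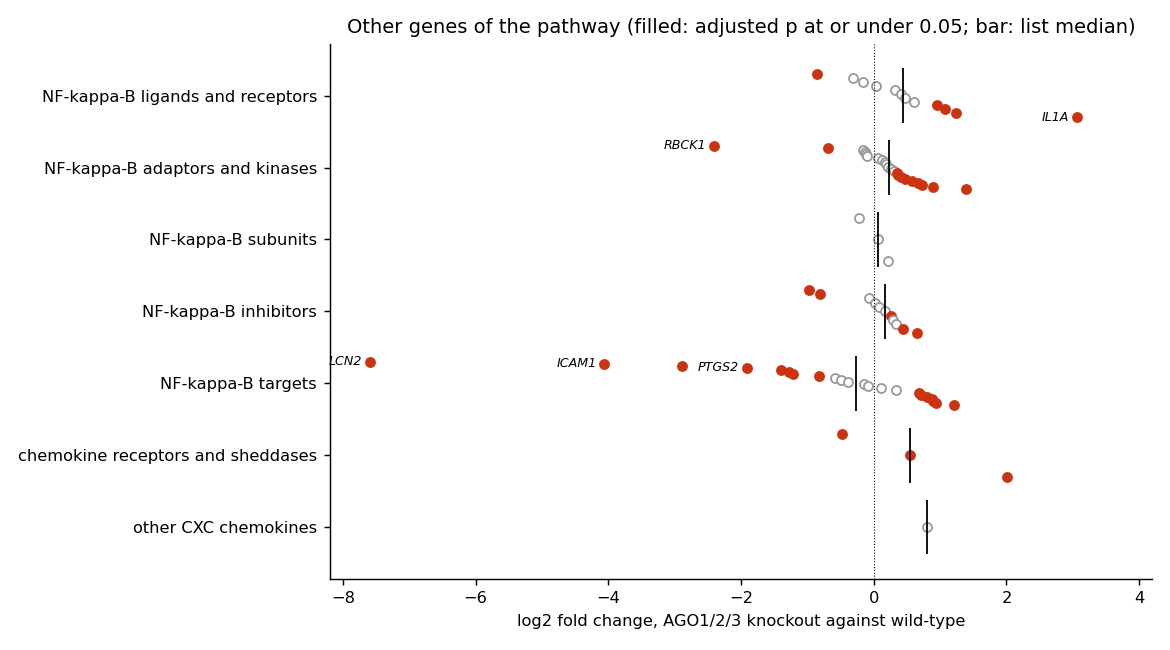
Log2 fold change in AGO1/2/3 knockout against wild-type cells (horizontal axis) of the 74 tested genes of the 7 lists, a row for each list, with filled red points for adjusted p at or under 0.05 and a black bar at the list median. The targets spread widest, from LCN2 and ICAM1 (-4.06) on the left, and their median of -0.27 lies below 0 while that of the adaptors and kinases (0.24) lies above it.

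The genes with the pattern most like the chemokines were found by the Pearson correlation, over 15 samples, with the mean of the standardized log2 levels of *CXCL1*, *CXCL2*, *CXCL3* and *CXCL8*. Among the 5 genes highest by this measure were *ZFAND3* (r = 0.898), *SLC22A15* (0.888), *GTPBP2* (0.887) and *GPR108* (0.883). *GTPBP2* had a mean of 101 CPM in wild-type, 54.3 in *AGO1*, 27.9 in *AGO2*, 44 in *AGO1/2* and 42.1 CPM in *AGO1/2/3* knockout cells. For the mean of *NFKBIA*, *TNFAIP3* and *BIRC3* they were *TSPAN9* (0.936), *ARNT* (0.933), *APOBEC3F* (0.932), *GPR161* (0.931) and *SAP30L* (0.931). *APOBEC3F*, a cytidine deaminase gene, was at a mean of 9.21, 9.12, 7.60, 17.3 and 41.9 CPM in the 5 lines in the same order. The samples share lines, so that these values describe likeness over 5 line means as much as over samples.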

How the data were processed

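RNA from 15 samples of HCT116 cells (5 lines, 3 replicates each) was sequenced by the authors from strand-specific libraries. The authors deposited estimated counts per gene, 1 file a sample, made with STAR and Salmon on hg38. The submitters' processing notes name STAR 2.5.3a, Salmon 0.11.0 and DESeq2. A file header of the 3 AGO2 knockout samples names another Salmon mode than those of the other lines, so that mode and genotype cannot be told apart for that line. The 8 eCLIP samples of the series were not analysed here.

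These estimates were rounded, since they need not be whole, and symbols were matched by Ensembl identifier for 57167 of 57875 genes. In R 4.3.3, edgeR 4.0.16 was used with filterByExpr, TMM scaling and 1 quasi-likelihood model of all 15 samples, and p-values were adjusted by Benjamini-Hochberg over the 22842 genes tested. A gene was called at an adjusted p at or under 0.05. An exact permutation test of 3 against 3 samples cannot go below 0.1. Standard errors of log2 fold changes were derived from the F statistic. CPM per kb used the length of the canonical GENCODE v44 transcript. No 2 of the 15 samples held identical values, over 105 pairs compared. The model code was tested on simulated data. Figures were drawn with Python 3.11.15 and matplotlib 3.10.9.

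The 10 genes and all lists were chosen with earlier results of these data known. Named beside them were, from each list, the 3 called genes with the largest change in AGO1/2/3 knockout cells and a mean of at least 1 CPM, a fixed set of cytokines, receptors and regulators whatever their values, the 5 genes most like each of 2 mean profiles (1 of which is not reported here), and AGO1, AGO2 and AGO3. Other genes were named after their values were seen. Alternatives were other scalings, DESeq2 1.42.0, other filters, only the samples compared, no AGO2 knockout samples, a replicate block, a 2-fold threshold and each sample left out. The comparison of AGO2 loss with and without AGO1, and the fits of list genes with a sample left out, were added after the values were seen. Marker genes of epithelium, leukocytes, fibroblasts and endothelium were summed in CPM.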

Additional observations from a re-analysis of the deposited data

Results flagged for a closer look

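The effect of losing AGO2 differed between cells with and without AGO1 for 5 of the 10 genes, by a test of the difference itself that was chosen after the values had been seen. On the log2 scale, the change without AGO1 minus the change with AGO1 was 1.99 for CXCL1 (SE 0.58, adjusted p = 0.026), 2.12 for CXCL8 (SE 0.61, adjusted p = 0.0237), 0.77 for NFKBIA (SE 0.22, adjusted p = 0.0227), -0.66 for NFKB1 (SE 0.14, adjusted p = 0.00437) and 1.53 for BIRC3 (SE 0.32, adjusted p = 0.00412), all from the quasi-likelihood fit with edgeR. Of all genes tested, 19.7% differed. The call was lost in 5 of 21 alternatives for CXCL1, 5 of 22 for CXCL8, 4 of 22 for NFKBIA and 1 of 22 for NFKB1. That of BIRC3 was kept in all 22. With a sample left out, 2 to 6 of the 10 genes were called. Each genotype is a single line, so that a difference between genotypes and a difference between lines cannot be told apart. The AGO2 knockout samples also name another Salmon mode. Mode and genotype thus cannot be told apart in the step from wild-type to AGO2 knockout cells.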

How the results depend on the processing

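The calls of BIRC3 in the AGO1/2 and AGO1/2/3 lines and of CXCL8 in the AGO2 line were kept under every alternative run (24, 24 and 23). No alternative changed the Salmon mode, which cannot be told apart from genotype for the AGO2 line. The cause of each change below was not tested. Counts of the 10 genes against wild-type cells moved as follows. In the AGO1 line (1 higher, 2 lower), 0 were higher under total-count scaling, no filter, the replicate block, a 2-fold threshold, only the 6 samples compared or no AGO2 knockout samples, and 1 was lower under no filter, the block, the 2-fold threshold or no AGO2 knockout samples and 0 with only 6 samples. In the AGO2 line (0 higher, 3 lower), 1 was higher by DESeq2's Wald test, 4 were lower with no filter (CXCL2 gained), and 2 were lower at the 2-fold threshold (NFKB2 lost), with only 6 samples (CXCL1 lost) or with a 10-count filter (CXCL1 not tested). In the AGO1/2 line (2 and 2), 1 was higher under total-count scaling, the block, the 2-fold threshold or no AGO2 knockout samples, and 1 was lower under the last 3, while NFKB2 made it 3 lower under DESeq2 size factors, total-count scaling, no filter, the 10-count filter and DESeq2's test. In the AGO1/2/3 line (3 and 2), the 2-fold threshold left 1 and 0, and 2 were higher, without TNFAIP3, under total-count scaling, no filter or only 6 samples. With each sample left out, the counts higher and lower were 0 to 1 and 0 to 2 (AGO1), 0 to 1 and 1 to 5 (AGO2), 1 to 2 and 1 to 3 (AGO1/2), and 2 to 4 lower (AGO1/2/3). Of other list genes, 9 were higher in the AGO1/2 line, against 4 under total-count scaling, 1 at 2-fold, 3 with only 6 samples and 4 to 9 with a sample left out, and in the AGO1/2/3 line the 2-fold threshold left 6 higher of 25 and 8 lower of 14. Between knockout lines, the 2-fold threshold left 0 of 1 (AGO2 against AGO1), 1 of 3 (AGO1/2 against AGO1), 2 of 6 (AGO1/2/3 against AGO1), 1 of 4 (AGO1/2 against AGO2), 3 of 7 (AGO1/2/3 against AGO2) and 0 of 1 (AGO1/2/3 against AGO1/2, 2 without a filter), and leaving out a sample gave 1 to 2 (AGO2 against AGO1), 1 to 3 (AGO1/2 against AGO1), 3 to 7 (AGO1/2/3 against AGO2) and 1 to 2 (AGO1/2/3 against AGO1/2). For the step of AGO2 loss, 3 of 5 were left at 2-fold and 2 to 6 with a sample left out. The summed CXCL1, CXCL2 and CXCL3 (-1.11 in the AGO2 line, not called) was called under total-count scaling (-1.24) and no filter (-1.07). Signs turned, all for values not called, for TNFAIP3 in the AGO2 line (0.018 with no filter) and CXCL1 in the AGO1/2/3 line (-0.063 under total-count scaling). With a sample left out, log2 fold changes that turned sign ran from -0.12 to 0.032 (TNFAIP3), from -1.40 to 0.12 (CXCL3) in the AGO2 line, from -0.68 to 0.84 (CXCL3), -0.21 to 0.11 (NFKBIA) and -0.16 to 0.017 (TNFAIP3) in the AGO1 line, from -0.65 to 0.0038 (CXCL1), -1.04 to 0.0066 (CXCL2) and -1.10 to 0.42 (CXCL3) in the AGO1/2 line, and from -0.36 to 0.42 (CXCL1) and -0.81 to 0.23 (CXCL2) in the AGO1/2/3 line. A filter of 10 counts in every sample of a fit removed CXCL1 and CXCL3, which have no value there.

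Same-numbered samples of different lines had correlations of their deviations from -0.2183 to 0.291, and 5 of 30 pairs were over 0.1. Samples with different numbers were not compared, so these values cannot tell whether same-numbered samples share a batch. In a fit with the replicate block, CXCL8 in the AGO2 line and BIRC3 in the AGO1/2/3 line kept their calls, and 3 higher and 2 lower genes were called in the AGO1/2/3 line as without it. The block ended the calls against wild-type cells of CXCL8 (-1.49, adjusted p = 0.0574) and NFKB1 (0.34, adjusted p = 0.0694) in the AGO1 line and of CXCL8 (-1.33, adjusted p = 0.0536) and NFKBIA (0.50, adjusted p = 0.0545) in the AGO1/2 line, and those of CXCL1 between the AGO1/2/3 and AGO1 lines and of CXCL8 between the AGO1/2/3 and AGO2 lines. Low counts limit CXCL1, CXCL2 and CXCL3 most, with 3 to 73 counts a sample.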
